A study of Mus musculus with 9 samples.

Results

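The annexins Anxa1, Anxa2, Anxa3, Anxa4, Anxa5, Anxa6, Anxa7 and Anxa11 and their S100 partners S100a10 and S100a11 were followed in mouse HPC7 cells. These 10 genes were chosen by name as a gene family, with earlier results of these data known, from the 27179 genes of the count table. Of them, 9 passed the low-count filter and were among the 12484 genes tested. Anxa3 did not pass it.

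HPC7 is a mouse blood progenitor cell line that depends on stem cell factor, and all cells were grown with it at 100 ng/ml in RPMI with 10% FCS and 0.05 mM 2-mercaptoethanol. The cells carried the retroviral vector MSCV-IRES-GFP with mutant Snai1, with wild-type Snai1, or with no gene (empty vector), and 3 libraries were made for each of these 3 groups. The mutant Snai1 protein has alanine in place of phenylalanine at residue 5, which, per the labels, impairs binding to Lsd1, the histone demethylase encoded by Kdm1a. GFP-positive cells were sorted 1 week after transduction, and poly(A) RNA was sequenced with a stranded kit. All groups share the cell line, the vector and the sort, so the comparisons are of forced Snai1 expression in 1 cell line. The labels do not say that the libraries of a group came from separate transductions or cultures, so the p-values measure only the spread between these libraries.

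Annexins are proteins that bind negatively charged phospholipids such as phosphatidylserine in a calcium-dependent way, and they act in membrane repair, vesicle traffic and the ordering of the actin cortex. Several have an S100 partner, a small protein of a mostly calcium-binding family that forms a dimer and holds a pair of annexin molecules together. S100a10 binds Anxa2, and S100a11 binds Anxa1 among others. The complex of Anxa2 with S100a10 lies inside the cell as well as at the cell surface, where it helps to convert plasminogen to plasmin. Snai1 is a zinc-finger repressor that binds E-box sequences and recruits Lsd1 through its N-terminal SNAG domain. In blood, Anxa1 is best known as an anti-inflammatory protein of myeloid cells.

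The libraries held 18332451 to 20860314 counts, and levels are given as counts-per-million values (CPM) of the scaled library size. At this depth 3 counts, the limit that a count of 0 allows, corresponded to 0.144 to 0.161 CPM, and such floors cover counting error only. Snai1 counts include the vector's transcript, and Snai1 averaged 459.8 ± 40.2 CPM with mutant Snai1, 492 ± 68.5 CPM with wild-type Snai1 and 0.828 ± 0.205 CPM with empty vector (SD, n = 3 each). The difference of Snai1 between mutant and wild-type libraries was smaller than the spread between them (edgeR quasi-likelihood test with Benjamini-Hochberg adjustment, adjusted p = 0.479). All 11 blood progenitor markers were tested and their summed level was 8668 to 9017 CPM with mutant Snai1, 8638 to 10379 CPM with wild-type Snai1 and 8781 to 9014 CPM with empty vector. Kit and Cd34 made up most of that sum. Of the 11 markers, 3 rose and 5 fell with wild-type Snai1 over empty vector, as did 25.2% and 24.3% of all tested genes. Wild-type replicate 1 stood apart from the other wild-type libraries, with a chi-square per degree of freedom of 47.2 and 55.9 against them, where those differed from each other by 5.35. Empty vector replicate 1 differed from the other empty vector libraries by 73.4 and 71.7, where those differed from each other by 5.00. It had 3.62% of its counts in 1 gene without a symbol, against 0.101% to 0.280% in the other libraries. That gene enters the values of 73.4 and 71.7 and raises them, so they cannot be set beside those of wild-type replicate 1. Each replicate 1 library named here was left out in turn, and the values are given below for some of the genes.

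With wild-type Snai1, 7 of the 9 tested members rose over empty vector and none fell. Anxa2 rose 8.35-fold, Anxa5 2.74-fold and Anxa1 2.32-fold, while Anxa6, Anxa4, Anxa7 and S100a10 rose by 1.42-fold or less. Anxa11 and S100a11 did not pass the threshold of an adjusted p under 0.05. With mutant Snai1 no member passed it against empty vector, and 6 members were lower and 1 higher than with wild-type Snai1.

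Those 7 rises must be read against a wide background, because 49.4% of all tested genes were called between wild-type Snai1 and empty vector, 25.2% as higher and 24.3% as lower. The libraries of wild-type Snai1 and empty vector did not overlap for 8 of the 9 members, S100a11 being the exception, and for 56.6% of all tested genes. The median log2 fold change of the 9 members was 0.48, against -0.00033 over all tested genes. A change of at least 2-fold was called for 12.5% of tested genes, and Anxa1, Anxa2 and Anxa5 were among them. Of all tested genes, 2.19% changed more than Anxa2, 7.97% more than Anxa5 and 10.1% more than Anxa1, whatever the direction.

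**Figure D1:**
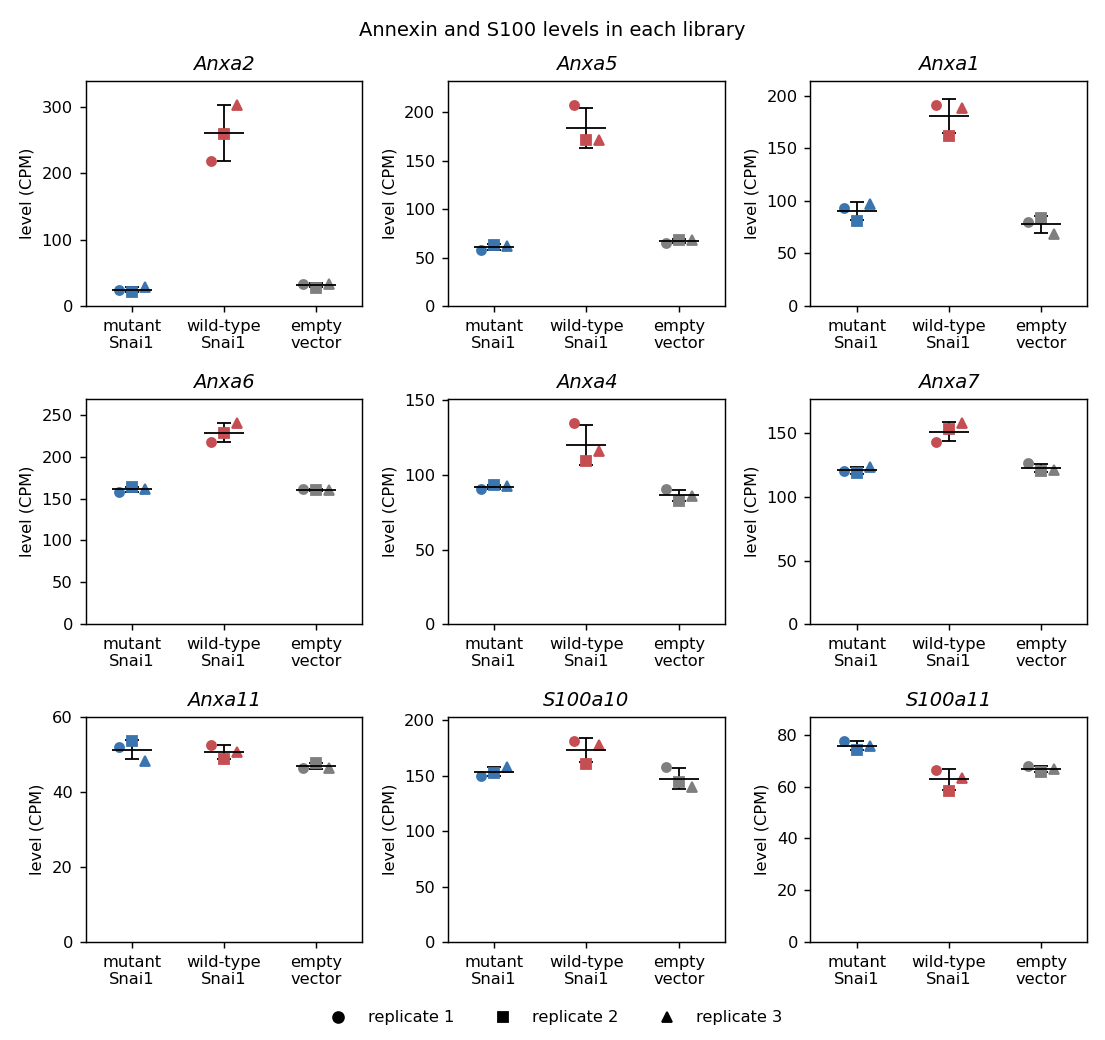
Level of each of the 9 tested genes in every library, in CPM on linear axes that start at 0, with mutant Snai1, wild-type Snai1 and empty vector from left to right; points are libraries and lines the group mean with SD (n = 3). The wild-type points of Anxa1, Anxa2, Anxa4, Anxa5, Anxa6, Anxa7, Anxa11 and S100a10 lie above all 3 empty vector points, those of Anxa11 by little. S100a11 points overlap between these groups.

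The 3 members with the largest rises are given first. Anxa2, an annexin of membranes and the cortical actin network that binds S100a10, is annotated at chr9:69453683-69491792 (GRCm38.p6, the assembly behind mm10). Its level was 24.7, 20.9 and 28.5 CPM with mutant Snai1, 219, 259 and 302 CPM with wild-type Snai1, and 32.5, 27.7 and 33.2 CPM with empty vector. The wild-type libraries were far above all others, and the mutant and empty vector libraries overlapped. Anxa2 was higher with wild-type Snai1 than with empty vector by a log2 fold change of 3.06 (SE 0.15, 95% interval 2.74 to 3.39, adjusted p = 2.42e-07). It was lower with mutant Snai1 than with wild-type Snai1 by a log2 fold change of -3.40 (SE 0.15, interval -3.73 to -3.06, adjusted p = 1.67e-07). Without wild-type replicate 1 the log2 fold change of Anxa2 over empty vector was 3.17, and without empty vector replicate 1 it was 3.08.

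Anxa5, the annexin whose tight binding to exposed phosphatidylserine is used to stain dying cells, lies at chr3:36448923-36475887. Its level was 57.9, 63.5 and 61.8 CPM with mutant Snai1, 208, 172 and 172 CPM with wild-type Snai1, and 65.0, 68.0 and 68.3 CPM with empty vector. All wild-type libraries exceeded all others, and wild-type replicate 1 was the highest of them. The log2 fold change of Anxa5 was 1.45 with wild-type Snai1 over empty vector (SE 0.08, interval 1.28 to 1.63, adjusted p = 3.56e-07), and 1.36 without wild-type replicate 1. Mutant Snai1 against wild-type Snai1 gave -1.59 for Anxa5 (SE 0.08, adjusted p = 2.22e-07). The mutant libraries all lay below the empty vector libraries, yet the log2 difference of -0.14 (interval -0.31 to 0.04) did not pass the test (adjusted p = 0.991).

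Anxa1, a substrate of growth factor receptor kinases that also acts as a ligand of formyl peptide receptors, lies at chr19:20373434-20390671. Its level was 93.2, 80.7 and 97.1 CPM with mutant Snai1, 191, 161 and 189 CPM with wild-type Snai1, and 80.1, 84.1 and 68.9 CPM with empty vector. The lowest wild-type library was well above the highest library of the other groups, which overlapped each other. The log2 fold change of Anxa1 with wild-type Snai1 over empty vector was 1.21 (SE 0.10, interval 0.99 to 1.43, adjusted p = 5.34e-06), and 1.17 without wild-type replicate 1. With mutant Snai1 the level of Anxa1 was lower than with wild-type Snai1, by -0.997 (SE 0.10, adjusted p = 2.12e-05).

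In such bulk RNA, fewer cells of a type and less RNA per cell cannot be told apart. Of the 12 monocyte and macrophage markers 7 were tested, and 6 of these rose and 1 fell with wild-type Snai1 over empty vector. Of all tested genes, 25.2% rose and 24.3% fell. The summed level of all 12 was 20.2 to 21.4 CPM with mutant Snai1, 204 to 339.7 CPM with wild-type Snai1 and 20.4 to 21.6 CPM with empty vector, with C1qa at 0 in all libraries. The summed level of the 12 neutrophil markers was 5415 to 5747 CPM with mutant Snai1, 1006 to 3226 CPM with wild-type Snai1 and 4752 to 5349 CPM with empty vector. Nearly all of that sum was Mpo, the myeloperoxidase gene, with 5557 CPM with mutant Snai1, 2218 CPM with wild-type Snai1 and 5112 CPM with empty vector on average. Of the 6 tested neutrophil markers Mpo fell and Lcn2 and Mmp8 rose, and Retnlg was at 0 in all libraries. Of the markers that rose, Adgre1, Cd14, Cx3cr1, Lcn2 and Mmp8 passed the low-count filter only through the wild-type libraries and so had to differ. Both marker sums differed in the wild-type libraries, as the annexins did, and their part in these results was not tested.

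The sequence before the start of these genes is shown because 7 members rose together and Snai1 binds E-boxes. RefSeq windows (GRCm38.p6) of 250 bases before an annotated start were found for 7 of the 10 members, all but Anxa3, Anxa6 and S100a10, and numbered 9 in all. The Snail-type E-box CAGGTG or its reverse complement CACCTG occurred in 1 window of Anxa7 and 1 window of Anxa11, among these 9 windows. It occurred in 17.2% of all 32851 windows of this length. The AP-1 core TGANTCA, which reads the same on both strands, occurred in 1 window of Anxa2 and 1 window of S100a11. It occurred in 6.75% of all windows. Both motifs were searched on both strands and do not overlap each other in these windows. The windows below are those of the 3 largest rises and of Anxa7, which rose and has the E-box, 5′ to 3′ on the strand of the gene, with matches in capitals. They are chr9:69453433-69453682 (plus strand), chr3:36475888-36476137 (minus strand), chr19:20390672-20390921 (minus strand) and chr14:20479942-20480191 (minus strand).
Anxa2: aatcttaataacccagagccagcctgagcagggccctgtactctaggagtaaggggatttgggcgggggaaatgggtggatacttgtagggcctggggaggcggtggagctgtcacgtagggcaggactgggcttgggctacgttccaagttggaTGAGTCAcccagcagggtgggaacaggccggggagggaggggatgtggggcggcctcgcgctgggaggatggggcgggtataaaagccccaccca
Anxa5: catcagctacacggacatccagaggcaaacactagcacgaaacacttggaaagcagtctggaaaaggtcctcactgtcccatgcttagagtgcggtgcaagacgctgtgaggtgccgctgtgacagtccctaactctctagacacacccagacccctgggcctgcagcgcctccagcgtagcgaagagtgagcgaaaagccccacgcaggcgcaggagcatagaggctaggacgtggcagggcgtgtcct
Anxa1: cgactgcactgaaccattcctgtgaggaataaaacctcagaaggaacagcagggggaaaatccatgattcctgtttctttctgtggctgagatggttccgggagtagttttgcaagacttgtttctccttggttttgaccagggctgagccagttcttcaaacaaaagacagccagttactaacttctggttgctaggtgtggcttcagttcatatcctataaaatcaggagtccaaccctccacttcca
Anxa7: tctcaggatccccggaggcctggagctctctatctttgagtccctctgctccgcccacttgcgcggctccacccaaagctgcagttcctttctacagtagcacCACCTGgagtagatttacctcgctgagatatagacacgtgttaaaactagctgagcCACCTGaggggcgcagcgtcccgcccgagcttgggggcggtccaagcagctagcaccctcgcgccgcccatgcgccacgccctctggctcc
The AP-1 match of Anxa2 begins 95 bases before the start. The E-box matches of Anxa7 begin 147 and 91 bases before the start of this window, which is a downstream start that lies inside the annotated gene, and the window of the upstream start of Anxa7 held neither motif. The windows of Anxa5 and Anxa1 held neither motif. In windows not shown, the E-box match of Anxa11 begins 79 bases before the start. The AP-1 matches of S100a11 begin 136 and 38 bases before the start. Neither Anxa11 nor S100a11 was called with wild-type Snai1 over empty vector. These matches describe the letters of the windows only.

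The smaller rises were those of Anxa6, Anxa4 and Anxa7. Anxa6, the annexin with a duplicated core that is known for endosome and cholesterol traffic, is at chr11:54978953-55033471. Its level was 157, 164 and 161 CPM with mutant Snai1, 218, 229 and 240.2 CPM with wild-type Snai1, and 162, 160.3 and 160.0 CPM with empty vector. Wild-type libraries of Anxa6 were above all others, and mutant and empty vector libraries overlapped. Its log2 fold change was 0.51 with wild-type Snai1 over empty vector (SE 0.05, adjusted p = 1.93e-05) and -0.51 with mutant Snai1 against wild-type Snai1 (SE 0.05, adjusted p = 2.20e-05).

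Anxa4, an annexin of epithelial and secretory membranes, lies at chr6:86736840-86793634. Its level was 90.3, 93.2 and 92.3 CPM with mutant Snai1, 135, 109 and 116 CPM with wild-type Snai1, and 90.4, 82.8 and 85.7 CPM with empty vector. Wild-type replicate 1 was highest, and all wild-type libraries were above the rest. The log2 fold change of Anxa4 was 0.48 with wild-type Snai1 over empty vector (SE 0.08, adjusted p = 5.38e-04), 0.39 without wild-type replicate 1, and -0.38 with mutant Snai1 against wild-type Snai1 (SE 0.08, adjusted p = 0.00210).

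Anxa7, also called synexin for its role in granule fusion, lies at chr14:20455261-20480133. Its level was 121, 119 and 124 CPM with mutant Snai1, 143, 153 and 158 CPM with wild-type Snai1, and 127, 121 and 121 CPM with empty vector. The wild-type group did not overlap the others, but the step was the smallest among the annexins that rose. The log2 fold change of Anxa7 was 0.30 with wild-type Snai1 over empty vector (SE 0.05, adjusted p = 0.00102) and -0.32 with mutant Snai1 against wild-type Snai1 (SE 0.05, adjusted p = 6.75e-04).

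Anxa11, a partner of the calcium-binding protein Pdcd6 that is known for carrying RNA granules on lysosomes in neurons, lies at chr14:25842127-25886804. Its level was 52.1, 53.6 and 48.5 CPM with mutant Snai1, 52.7, 48.9 and 50.7 CPM with wild-type Snai1, and 46.5, 48.0 and 46.6 CPM with empty vector. Libraries of both Snai1 groups were all above those of empty vector, by little. None of the 3 comparisons passed the test for Anxa11, with a log2 difference of 0.11 for wild-type Snai1 against empty vector (interval -0.03 to 0.25, adjusted p = 0.170). It was 0.13 for mutant Snai1 against empty vector (interval -0.01 to 0.27, adjusted p = 0.980).

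Anxa3, an annexin abundant in neutrophil granules, lies at chr5:96793385-96845968 and was at the edge of detection. It had 0, 0 and 0 CPM with mutant Snai1, 0, 0 and 0.301 CPM with wild-type Snai1, and 0, 0 and 0.0537 CPM with empty vector. These Anxa3 values were 6 counts in wild-type replicate 3 and 1 count in empty vector replicate 3. No fold change is given for it.

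Both S100 partners differed little between the groups. S100a10, the p11 subunit of the Anxa2 complex, lies at chr3:93555117-93564645. Its level was 150.0, 153 and 158 CPM with mutant Snai1, 181, 160.4 and 178 CPM with wild-type Snai1, and 158, 144 and 139.8 CPM with empty vector. The lowest wild-type library was only slightly above the highest library of the other groups. S100a10 rose 1.17-fold with wild-type Snai1 over empty vector, a log2 fold change of 0.23 (SE 0.07, interval 0.09 to 0.38, adjusted p = 0.0135). Leaving out empty vector replicate 2 or replicate 3 ended that call (adjusted p = 0.0553 and 0.0627). Mutant Snai1 against wild-type Snai1 gave -0.17 for S100a10 (interval -0.31 to -0.03), which did not pass (adjusted p = 0.0522) except without wild-type replicate 2 (adjusted p = 0.0210).

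S100a11, the partner of Anxa1 and other annexins, lies near S100a10 at chr3:93520496-93526288, with 28828 bases and 1 annotated gene, Gm29950, between them. Its level was 77.5, 74.3 and 75.6 CPM with mutant Snai1, 66.5, 58.4 and 63.5 CPM with wild-type Snai1, and 67.9, 65.7 and 66.7 CPM with empty vector. The mutant libraries were the highest, and wild-type and empty vector libraries overlapped. S100a11 was higher with mutant Snai1 than with wild-type Snai1, by a log2 fold change of 0.27 (SE 0.06, interval 0.14 to 0.41, adjusted p = 0.00411), a ratio of 1.21. Against empty vector it differed by -0.09 with wild-type Snai1 (interval -0.22 to 0.05, adjusted p = 0.257). With mutant Snai1 the difference of S100a11 to empty vector was 0.18 (interval 0.05 to 0.32, adjusted p = 0.980).

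**Figure D2:**
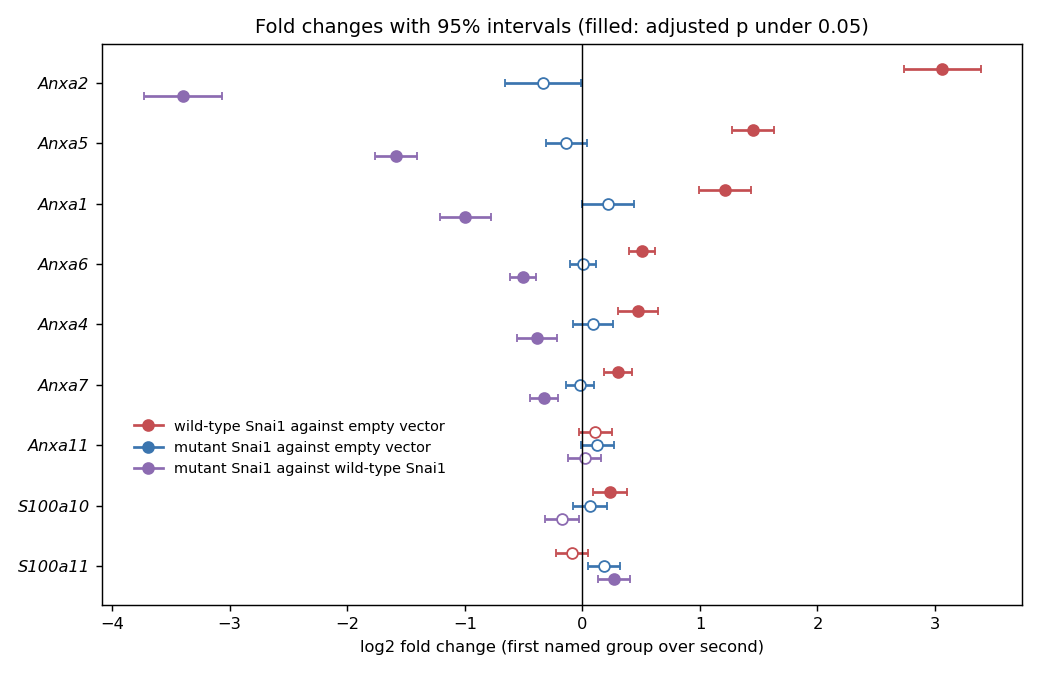
Log2 fold change of the 9 tested genes in each comparison, with 95% intervals from the edgeR fit of all 9 libraries and filled points where the adjusted p was under 0.05. Anxa2 lies at 3.06 for wild-type Snai1 against empty vector and at -3.40 for mutant against wild-type Snai1, and the intervals of mutant Snai1 against empty vector lie near 0.

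Mutant Snai1 was set against the same empty vector libraries to ask what Snai1 does when its binding to Lsd1 is impaired. No member was called in this comparison by the edgeR test, in which 0.00801% of tested genes were called, namely Snai1 itself. At an unadjusted p under 0.05 there were 2 members, Anxa2 and S100a11, and 603 of the 12484 tested genes (4.83%). DESeq2 called none of the members and 10 genes in all. The log2 difference of Anxa2 was -0.33 (interval -0.66 to -0.01, unadjusted p = 0.0438, adjusted p = 0.980). For Anxa1 the difference was 0.22 (interval -0.00 to 0.44, adjusted p = 0.980).

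Anxa6, Anxa7, Anxa4 and S100a10 lay closest to 0 in this comparison. Anxa6 differed by 0.00 (interval -0.11 to 0.11), Anxa7 by -0.02 (interval -0.14 to 0.10) and Anxa4 by 0.09 (interval -0.08 to 0.26). For S100a10 the difference was 0.06 (interval -0.08 to 0.21). Farther from 0 were S100a11 at 0.18 (interval 0.05 to 0.32), Anxa5 at -0.14 (interval -0.31 to 0.04) and Anxa11 at 0.13 (interval -0.01 to 0.27). Of the 9 members Anxa5 was below, and Anxa11 and S100a11 above, all empty vector libraries with mutant Snai1, and 17.6% of tested genes had groups that did not overlap. The median log2 difference was 0.06 over the members and -0.0048 over all tested genes.

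The direct comparison of mutant with wild-type Snai1 tests whether the effects of both proteins differ. It called 6 of the 9 members lower (Anxa1, Anxa2, Anxa4, Anxa5, Anxa6 and Anxa7) and 1 higher (S100a11), where 47.9% of tested genes were called, 24.5% lower and 23.4% higher. The libraries of these groups did not overlap for 8 members, all but Anxa11, and for 55.8% of tested genes. The median log2 fold change was -0.38 over the members and 0.0055 over all tested genes. In fold terms, Anxa2 was 10.5-fold lower with mutant than with wild-type Snai1, Anxa5 3.01-fold and Anxa1 2.00-fold.

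Levels can be compared between genes only per length, as RPKM, the CPM value per kilobase of gene length. With mutant Snai1 the order ran S100a10 (237 RPKM), S100a11 (150.4), Anxa1 (64.8), Anxa6 (60.5), Anxa4 (45.9), Anxa7 (40.8), Anxa5 (35.4), Anxa11 (21.5) and Anxa2 (17.97). In that order Anxa1 and Anxa6, and likewise Anxa11 and Anxa2, overlapped over libraries. With wild-type Snai1 the order was S100a10 (266 RPKM), Anxa2 (189), Anxa1 (129), S100a11 (125), Anxa5 (107), Anxa6 (86.0), Anxa4 (59.9), Anxa7 (51.1) and Anxa11 (21.2). Here Anxa1 overlapped S100a11, and S100a11 overlapped Anxa5. With empty vector the order was S100a10 (227 RPKM), S100a11 (132), Anxa6 (60.4), Anxa1 (55.7), Anxa4 (43.1), Anxa7 (41.5), Anxa5 (38.9), Anxa2 (22.7) and Anxa11 (19.6), with overlaps of Anxa6 with Anxa1 and of Anxa4 with Anxa7.

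Anxa2 thus stood at or next to the end of this order with mutant Snai1 and with empty vector, and next after S100a10 with wild-type Snai1. Its share of the summed RPKM of the members was 2.66% with mutant Snai1, 18.3% with wild-type Snai1 and 3.54% with empty vector. S100a10 held 35.1%, 25.7% and 35.3% of that sum in the same groups. The 8 annexins together had 287 ± 7.37 RPKM with mutant Snai1, 643 ± 31.4 RPKM with wild-type Snai1 and 282 ± 5.21 RPKM with empty vector (SD, n = 3 each). The summed S100 partners had 387 ± 5.87 RPKM with mutant Snai1, 391 ± 24.9 RPKM with wild-type Snai1 and 359 ± 16.5 RPKM with empty vector.

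**Figure D3:**
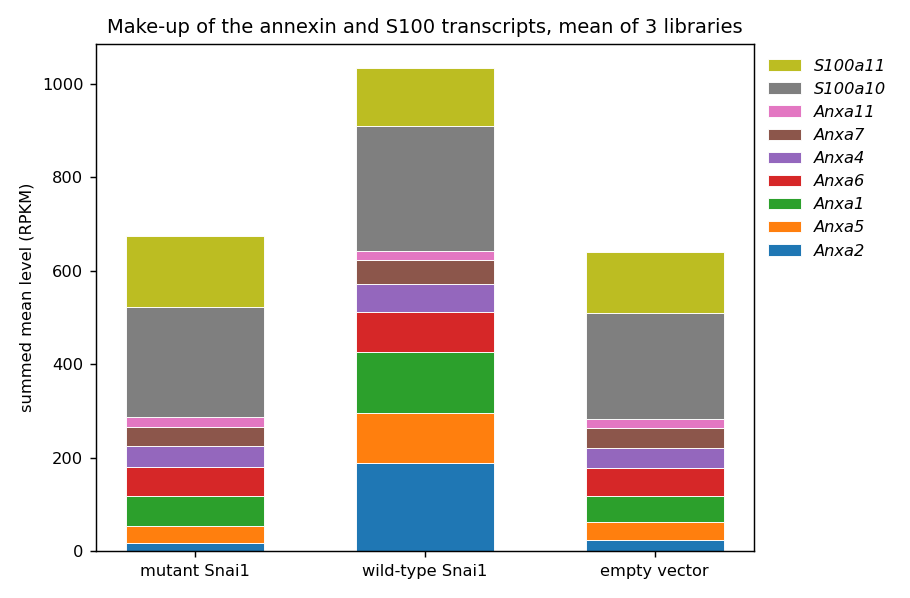
Mean RPKM of the 9 tested genes stacked into 1 bar for each group (mean of 3 libraries), with mutant Snai1, wild-type Snai1 and empty vector from left to right. The bars reach 674, 1034 and 641 RPKM in that order, and the Anxa2 part at the bottom is 17.97, 189 and 22.7 RPKM.

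The ratio of S100a10 to Anxa2 RNA sets the subunits of 1 complex side by side. As a ratio of RPKM it was 12.8, 15.5 and 11.7 in mutant libraries, 1.75, 1.31 and 1.24 in wild-type libraries, and 10.3, 10.98 and 8.91 in empty vector libraries. S100a10 RNA exceeded Anxa2 RNA in every library, by far less in the wild-type libraries than in all others. The mean log2 ratio differed by -2.82 between wild-type Snai1 and empty vector, by 3.23 between mutant and wild-type Snai1, and by 0.40 between mutant Snai1 and empty vector. In each comparison the groups did not overlap, and each two-sided exact permutation test gave p = 0.1, the smallest that 3 against 3 libraries allow. No protein was measured.

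**Figure D4:**
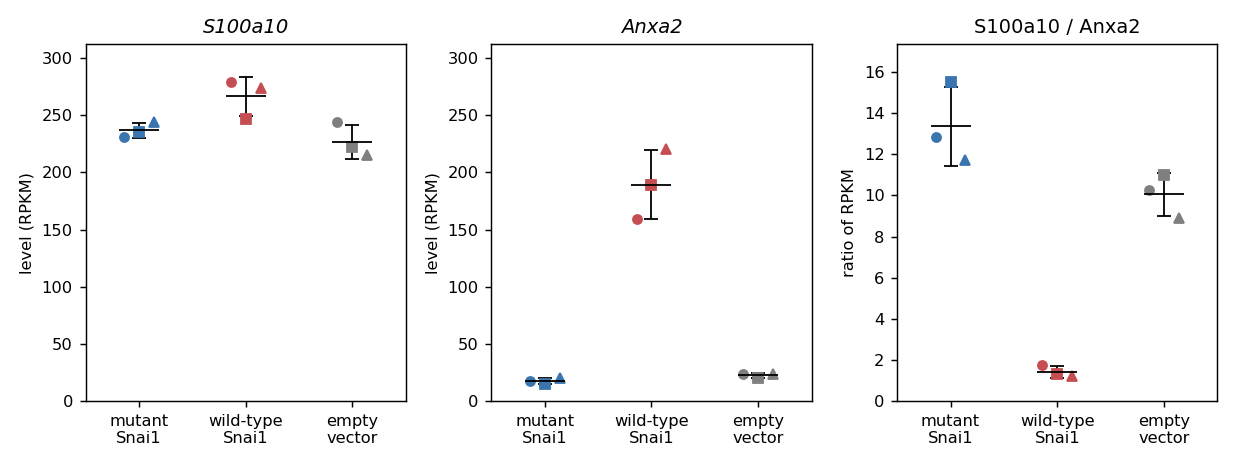
Level of S100a10 and of Anxa2 in RPKM and the ratio of both, in each library on linear axes that start at 0, with mutant Snai1, wild-type Snai1 and empty vector from left to right and lines for the group mean with SD (n = 3). The wild-type ratios lie between 1.24 and 1.75 and the others between 8.91 and 15.5.

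Genes whose pattern was most like a member over the 9 libraries were ranked among 10787 named genes by the root mean square distance of centred log2 CPM. Closest to Anxa2 were Msantd3 (distance 0.222), Mras (0.229) and Nhsl2 (0.236). Msantd3 averaged 0.271 CPM with mutant Snai1, 3.08 CPM with wild-type Snai1 and 0.258 CPM with empty vector. Mras averaged 0.422, 6.19 and 0.499 CPM in the same groups. Both reached the mean of 1 CPM asked of these genes only through the wild-type libraries, which partly set their likeness to Anxa2. Nhsl2 averaged 1.504 CPM with mutant Snai1, 17.2 CPM with wild-type Snai1 and 1.96 CPM with empty vector. Closest to Anxa5 were Rabep1 (0.0726), Aplp2 (0.0728) and Rgl1 (0.0907), and Aplp2 averaged 67.2 CPM with mutant Snai1, 204 CPM with wild-type Snai1 and 71.0 CPM with empty vector. Closest to Anxa1 were Actn1 (0.0849), Cd53 (0.0860) and Ddit4 (0.106), and Actn1 averaged 101 CPM with mutant Snai1, 208 CPM with wild-type Snai1 and 88.9 CPM with empty vector. These distances describe likeness over the same libraries and carry no test.

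The other members of both families were mostly silent. Of Anxa8, Anxa9, Anxa10 and Anxa13, only Anxa9 was tested, and it had 6.11, 8.73 and 8.89 CPM with mutant Snai1, 2.89, 6.41 and 6.37 CPM with wild-type Snai1, and 8.08, 7.80 and 8.32 CPM with empty vector. Its log2 difference with wild-type Snai1 over empty vector was -0.63 (interval -1.22 to -0.04), which did not pass (adjusted p = 0.0745). Of 14 other S100 genes 3 were tested, and all 3 rose with wild-type Snai1 over empty vector, where 25.2% of all tested genes were called higher. S100a4, a calcium-binding protein of motile cells that binds non-muscle myosin, had 3.36, 2.495 and 3.42 CPM with mutant Snai1, 139, 45.6 and 62.5 CPM with wild-type Snai1, and 4.04, 3.90 and 4.19 CPM with empty vector. Wild-type replicate 1 was more than 2-fold above the other wild-type libraries. The log2 fold change of S100a4 over empty vector was 4.34 (SE 0.44, adjusted p = 8.48e-05), and 3.74 without wild-type replicate 1. S100a13 rose by a log2 fold change of 0.43 (adjusted p = 0.00273), and S100a1 by 0.50 (adjusted p = 0.0203), which no longer passed once empty vector replicate 1 was left out (adjusted p = 0.0843).

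Of 11 partners of annexins and S100 proteins 10 were tested, and 2 of these, Fpr1 and Fpr2, passed the low-count filter only through the wild-type libraries and so had to differ. Of the other 8, 4 rose with wild-type Snai1 and none fell, where 25.2% of all tested genes were called higher and 24.3% lower. Their median log2 fold change was 0.27, against -0.00033 over all tested genes. Ahnak, a giant scaffold protein that binds the complex of Anxa2 and S100a10, had 70.5, 70.7 and 71.7 CPM with mutant Snai1, 274, 217 and 227 CPM with wild-type Snai1, and 101, 73.9 and 87.1 CPM with empty vector. All wild-type libraries of Ahnak were above 2-fold of any other library. Its log2 fold change was 1.45 with wild-type Snai1 over empty vector (SE 0.12, adjusted p = 6.03e-06) and -1.75 with mutant against wild-type Snai1 (SE 0.12, adjusted p = 1.95e-06). Fpr1, a formyl peptide receptor of myeloid cells, had 2.14, 4.26 and 5.47 CPM with wild-type Snai1, against 0 in the empty vector libraries. Taking the floor of 3 counts per library, Fpr1 was on average at least 25.5-fold higher with wild-type Snai1, given as a description. Without wild-type replicate 3 this limit was 20.6-fold. Fpr2, the receptor through which Anxa1 acts, had 1.20, 1.62 and 3.11 CPM with wild-type Snai1, against 0 with empty vector. Fpr2 was on average at least 12.7-fold higher, and at least 9.07-fold without wild-type replicate 3.

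Plasmin generation was followed because the Anxa2 complex takes part in it. Of 9 genes 5 were tested, but 3 of them, Plau and Serpinb2 included, passed the low-count filter only through the wild-type libraries and so had to differ. The other 2, Plgrkt and the urokinase receptor gene Plaur, named here after its values were seen, both rose with wild-type Snai1, where 25.2% of all tested genes were called higher. The list held both activators and inhibitors. Plgrkt, a membrane receptor of plasminogen, had 89.4, 97.9 and 91.9 CPM with mutant Snai1, 132, 142 and 124 CPM with wild-type Snai1, and 97.4, 100.3 and 103 CPM with empty vector. Its log2 fold change was 0.41 with wild-type Snai1 over empty vector (SE 0.06, adjusted p = 4.10e-04). Plau, the urokinase-type activator, had 0.747, 1.22 and 0.702 CPM with wild-type Snai1 and 0 with empty vector. Plau was on average at least 5.75-fold higher, and at least 4.68-fold without wild-type replicate 2. Serpinb2, an inhibitor of that activator, had 4.48, 21.2 and 23.1 CPM with wild-type Snai1 and 0 with empty vector. Serpinb2 was on average at least 105-fold higher, and at least 82.8-fold without wild-type replicate 3. Wild-type replicate 1 was the lowest of the wild-type libraries for Serpinb2.

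Membrane repair genes were compared because annexins gather at wounds of the plasma membrane. Of 20 genes 17 were tested, and 2 of these, Myof and Ehd2, passed the low-count filter only through the wild-type libraries and so had to differ. Of the other 15, 8 rose and none fell with wild-type Snai1, where 25.2% of all tested genes were called higher and 24.3% lower. The median log2 fold change of these 15 was 0.27. Capn2, the catalytic subunit of a calcium-activated protease, had 111, 118 and 113 CPM with mutant Snai1, 285, 262 and 270.3 CPM with wild-type Snai1, and 116, 113 and 118 CPM with empty vector. Its log2 fold change was 1.24 over empty vector (SE 0.05, adjusted p = 6.70e-08). Myof, a ferlin of membrane fusion, had 4.13, 5.04 and 10.1 CPM with wild-type Snai1, against 0.106, 0.0963 and 0.215 CPM with empty vector. Chmp4b and Chmp3, subunits of the ESCRT-III complex that pinches off damaged membrane, rose by 0.42 and 0.48 (adjusted p = 5.04e-05 and 4.91e-04).

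Genes of phosphatidylserine exposure and uptake share with Anxa5 the lipid it binds. Of 13 genes 10 were tested, and 5 rose and 1 fell with wild-type Snai1, close to the 49.4% of all tested genes called in this comparison. The median log2 fold change was 0.14. Stab1, a scavenger receptor that takes up cells with exposed phosphatidylserine, had 4.03, 2.59 and 3.32 CPM with mutant Snai1, 36.7, 41.0 and 42.9 CPM with wild-type Snai1, and 2.71, 2.99 and 2.84 CPM with empty vector. Its log2 fold change was 3.82 over empty vector (SE 0.14, adjusted p = 3.21e-08). Atp11a, a flippase that returns the lipid to the inner leaflet, rose by 1.03 (SE 0.12, adjusted p = 7.00e-05), and its subunit Tmem30a by 0.66 (SE 0.09, adjusted p = 1.30e-04). Plscr3, a phospholipid scramblase of mitochondria, was the gene that fell, its log2 fold change being -0.51 (SE 0.07, adjusted p = 2.60e-04).

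**Figure D5:**
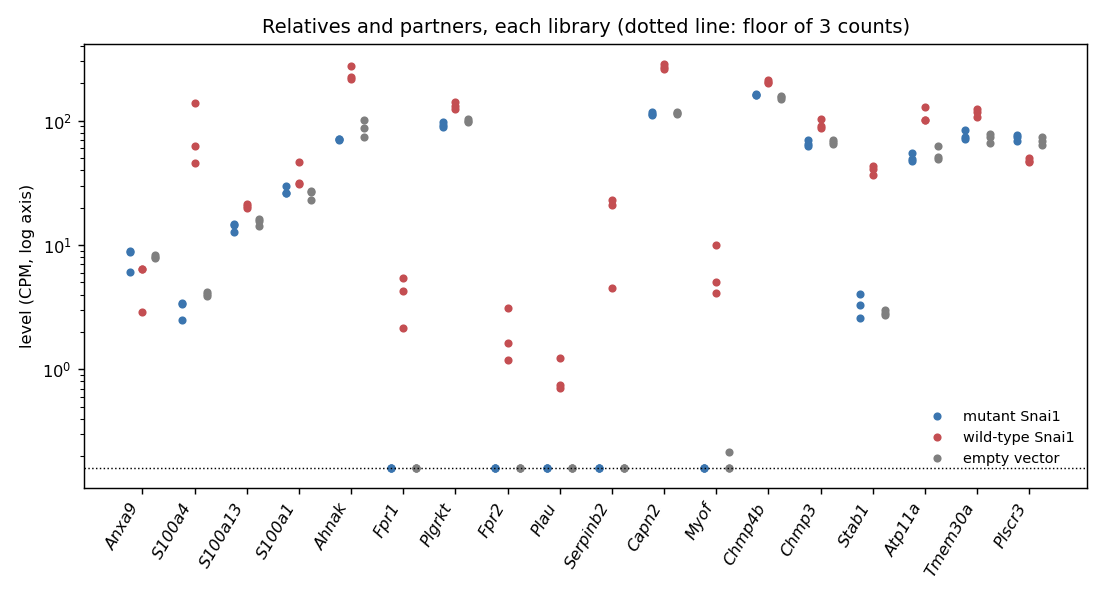
Level of the named relatives, partners and pathway genes in every library, in CPM on a log axis, with points for mutant Snai1, wild-type Snai1 and empty vector from left to right at each gene and values under the floor of 3 counts drawn on the dotted line. Ahnak, Capn2 and Stab1 show wild-type points above all others, and Plscr3 below.

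Over all 6 lists together, 44 of 69 genes were tested, 7 of them passing the low-count filter only through the wild-type libraries. Of the other 37, 21 rose and 1 fell with wild-type Snai1 over empty vector, where 25.2% and 24.3% of all tested genes did. With mutant Snai1 none of the 44 was called against empty vector by edgeR or by DESeq2, and 4 had an unadjusted p under 0.05, as had 4.83% of all tested genes. With mutant against wild-type Snai1, 20 of the 37 were lower and 2 higher, where 24.5% and 23.4% of all tested genes were. These lists share the empty vector or wild-type libraries with the members, and some genes stand in more than 1 list.

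Some counts may hold reads of overlapping genes. The strand setting of the counting is not given in the sources used here, so reads of Anxa1, Anxa2, Anxa4 and Anxa11 cannot be told apart from those of the opposite-strand genes 1500015L24Rik, Gm16144, Gm44036 and Anxa11os. Anxa2 and Anxa5 also host the microRNA genes Mir3109 and Mir7009. No annotated gene overlapped Anxa6, Anxa7, S100a10 or S100a11, and the pseudogene S100a11-ps had 17 counts over all libraries.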

How the data were processed

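The deposited table holds raw counts per gene for all 9 libraries, made by the authors with featureCounts on mm10, per the submitters' processing notes, where edgeR 3.15.0 and limma 3.29.12 are also listed. For the aligner, annotation and strand setting, details are not given in the sources used here. There were 0 columns of other samples in it. Entrez identifiers were given RefSeq symbols and positions of GRCm38.p6, the assembly behind mm10, for 25275 of 27179 genes, and overlaps were read from GENCODE.

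Counts were analysed in R 4.3.3 with edgeR 4.0.16 (filterByExpr by group, TMM scaling, 1 robust quasi-likelihood fit of all 9 libraries), and p-values were adjusted by the Benjamini-Hochberg method over all 12484 tested genes. A gene was called at an adjusted p under 0.05. Intervals are 95% intervals of the fit. CPM and RPKM use the TMM-scaled library size and the deposited gene length. Because PCR copies are not independent molecules, floors cover counting error only. The code was tested on simulated data.

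Members and gene lists were chosen with earlier results of these data known. The rule named all members, Snai1 and up to 4 genes of each list with the smallest p for wild-type Snai1 against empty vector. A gene that the rule names is not reported here. It also named the 3 genes most like each of the 3 members whose group means ranged most widely, taken from genes averaging 1 CPM or more. Alternatives were DESeq2 1.42.0, other scaling, no filter, a fit of only the compared groups, a replicate block and leaving out each library.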

Additional observations from a re-analysis of the deposited data

How the results depend on the processing

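Of the 9 tested members, 7 were called with wild-type Snai1 against empty vector under DESeq2, RLE size factors, no filter, a fit of only the 6 libraries compared and the replicate block, and 6 to 7 when a library was left out. With mutant Snai1 against empty vector no member was called under any of these alternatives, and with mutant against wild-type Snai1 the count was 7, or 7 to 8 without a library. Over all genes, wild-type Snai1 against empty vector gave 6172 calls (5301 to 6284 under these alternatives, 5106 to 7410 without a library), and mutant against wild-type Snai1 5977 (5244 to 6026, and 4978 to 7308). Mutant Snai1 against empty vector gave 1 call, 10 with DESeq2, 30 with only the 6 libraries compared, and 1 to 62 without a library. This comparison gave 62 without wild-type replicate 1 and 2 without wild-type replicate 2. Those libraries belong to neither group and enter through the shared filter, scaling and spread. The cause of these changes was not tested. Leaving out a library turned the sign of values close to 0, with ranges of -0.0111 to 0.0190 for Anxa6 (mutant Snai1 against empty vector) and -0.0116 to 0.0603 for Anxa11 (mutant against wild-type Snai1). The log2 S100a10 to Anxa2 ratio ranged over -2.98 to -2.73 for wild-type Snai1 against empty vector, 0.29 to 0.49 for mutant Snai1 against empty vector and 3.11 to 3.38 for mutant against wild-type Snai1. The labels do not say whether the replicate numbers pair the libraries. Correlations of same-numbered deviations were -0.0873 to 0.210, with 2 of 9 pairs over 0.1. Of 9 libraries, 4 correlated best with their own number, which does not settle the question. With the replicate block 5886, 1 and 5732 genes were called in the comparisons of wild-type Snai1 with empty vector, of mutant Snai1 with empty vector and of mutant with wild-type Snai1. The paired ratio differences stayed at -2.82, 0.40 and 3.23 with an exact sign-flip p of 0.25, the smallest that 3 pairs allow, and Anxa9 passed the test under the block (log2 difference -0.68, adjusted p = 0.0289). Depth limits Anxa3 and the list genes at 0 with empty vector, for which only a limit can be given.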

Other observations

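Markers of other blood and stromal cells were listed beside the members, and their counts are given here as values without a test of the lists. Of 9 erythroid markers 6 were tested, and 5 fell and none rose with wild-type Snai1 against empty vector, with a summed level of 14.6 to 17.9 CPM with wild-type Snai1 and 31.8 to 34.3 CPM with empty vector. Of 9 megakaryocyte markers 8 were tested, and 5 rose and 2 fell. Of 10 lymphoid markers 3 were tested, and all 3 fell. Of 9 mast cell and basophil markers 3 were tested and 1 rose, and of 9 fibroblast and stromal markers 1 was tested and fell. Among the 11 blood progenitor markers 3 rose and 5 fell. The shares of tested genes called were 25.2% higher and 24.3% lower in this comparison.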
